A study of Mus musculus with 6 samples.

Results

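The genes examined here are 36 mouse genes whose products copy DNA, supply its building blocks or switch on the genes for both, listed by name. They comprise 10 genes of origin licensing (*Orc1*, *Orc6*, *Cdc6*, *Cdt1* and *Mcm2* to *Mcm7*), 6 of helicase activation (*Mcm10*, *Cdc45* and *Gins1* to *Gins4*), 9 of the polymerases, sliding clamp and clamp loader (*Pola1*, *Prim1*, *Prim2*, *Pold1*, *Pole*, *Pcna*, *Rfc3*, *Rfc4* and *Rfc5*), 2 of flap removal and ligation (*Fen1* and *Lig1*), 4 of nucleotide supply (*Rrm1*, *Rrm2*, *Tyms* and *Tk1*), 3 of chromatin assembly and maintenance (*Chaf1a*, *Chaf1b* and *Uhrf1*) and 2 E2F factors (*E2f1* and *E2f8*). All 36 were found among the 40481 genes of the table of all pools, and all 36 passed the filter on low counts that left 17287 genes for testing.

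DNA is copied once per cell division. In the G1 phase the origin recognition complex, with CDC6 and CDT1, loads rings of MCM2 to MCM7 onto origins, and in S phase CDC45 and the GINS complex turn each ring into an active helicase. Polymerases then extend primers behind the helicase, held on DNA by the PCNA clamp, while ribonucleotide reductase, thymidylate synthase and thymidine kinase supply deoxynucleotides. Most of these genes are targets of E2F transcription factors and are read mainly in dividing cells. In the adult liver few hepatocytes divide at rest, and injury brings hepatocytes, macrophages and other cells of the organ into the cycle.

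Liver RNA came from male C57BL/6 mice carrying a floxed *Mttp* gene and a tamoxifen-inducible Villin Cre transgene (*Mttp* f/f Villin Cre ERT2), whose Villin promoter is active in intestinal epithelium. *Mttp-IKO* mice received tamoxifen (50 µg per g body weight daily for 5 days), while the littermate controls, called wild type in the labels, received vehicle. Both genotypes were 12 to 16 weeks old and ate a methionine- and choline-deficient (MCD) diet for 3 weeks, starting 3 weeks after tamoxifen or vehicle. This diet brings on steatosis, inflammation and fibrosis, and livers were taken after a fast. Each genotype was read as 3 pools of liver RNA, and by the paper a pool joined the RNA of 3 to 4 mice, so that n = 3 counts pools and their spread is smaller than that between mice. The labels speak of 12 livers, and how that number divides over the pools could not be checked. The pools held 25271585 to 36238734 reads on genes. Levels are given as CPM (counts relative to the reads of a pool, scaled by TMM). Before the TMM scaling, 3 reads are worth 0.0828 to 0.119 CPM. *Mttp* itself, which Villin Cre does not target in liver, was read at 150 and 145 CPM in control and *Mttp-IKO* liver (log2 fold change −0.06 ± 0.27 SE, edgeR adjusted p = 0.926), so the labels could not be checked through it. One library stood apart. In *Mttp-IKO* pool 3 genes of small RNAs took 0.635% of the reads against 3.60% to 5.27% in the other 5 pools, and protein-coding genes under 1000 nucleotides took 1.70% against 3.64% to 3.86%.

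Genes of DNA replication were read at lower levels in *Mttp-IKO* liver. Of the 36 genes, 34 had a negative log2 fold change (*Mttp-IKO* against control) and 8 fell at an adjusted p under 0.05: *Cdt1*, *Mcm2*, *Mcm3*, *Mcm4*, *Mcm5*, *Mcm6*, *Uhrf1* and *E2f1*. That is 8 of 36, where 3.09% of all genes tested fell (edgeR's quasi-likelihood test, Benjamini-Hochberg adjustment over 17287 genes). None of the 36 rose, but only 0.92% of all genes did, a share too small for 0 of 36 to set them apart. At an unadjusted p under 0.05, 0 of the 36 were higher, against 9.53% of all genes. DESeq2 and limma-voom also called 0 of the 36 higher, where they called 657 and 116 of all genes higher. In 26 of the 36 every *Mttp-IKO* pool lay below every control pool, which held for 16.5% of all genes, and 18 were lower at an unadjusted p under 0.05, against 13.5%. The median log2 fold change of the 36 genes was −0.71, and that of all genes tested was 0.01. Summed over the 36 genes, the level was 346, 335 and 344 CPM in the control pools and 206, 224 and 198 CPM in the *Mttp-IKO* pools, so the genotypes did not overlap in the sum.

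The number of calls rested on single pools, over all genes as well as among the 36. None of the 8 was called without control pool 1, control pool 3 or *Mttp-IKO* pool 2. Over all genes, 15, 17 and 0 were called lower in those fits. Without *Mttp-IKO* pool 1, 2 of the 8 (*Mcm2* and *Mcm5*) were called, and 32 of all genes were lower. Without *Mttp-IKO* pool 3, 6 were called (not *Mcm4* and *Mcm6*, while *E2f8* was added), and 562 of all genes were lower. Without control pool 2, 8 were called, and 771 of all genes were lower. In each of these fits 33 to 35 of the 36 genes had a negative fold change and 14 to 18 an unadjusted p under 0.05. That p was reached by 2476 to 4685 of all genes. DESeq2 called 13 of the 36 genes, the same 8 with *Mcm10*, *Pole*, *Rfc3*, *Chaf1a* and *E2f8* added. It also called more genes over the whole set, with 1338 of 17287 lower against 535 by edgeR.

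**Figure D1:**
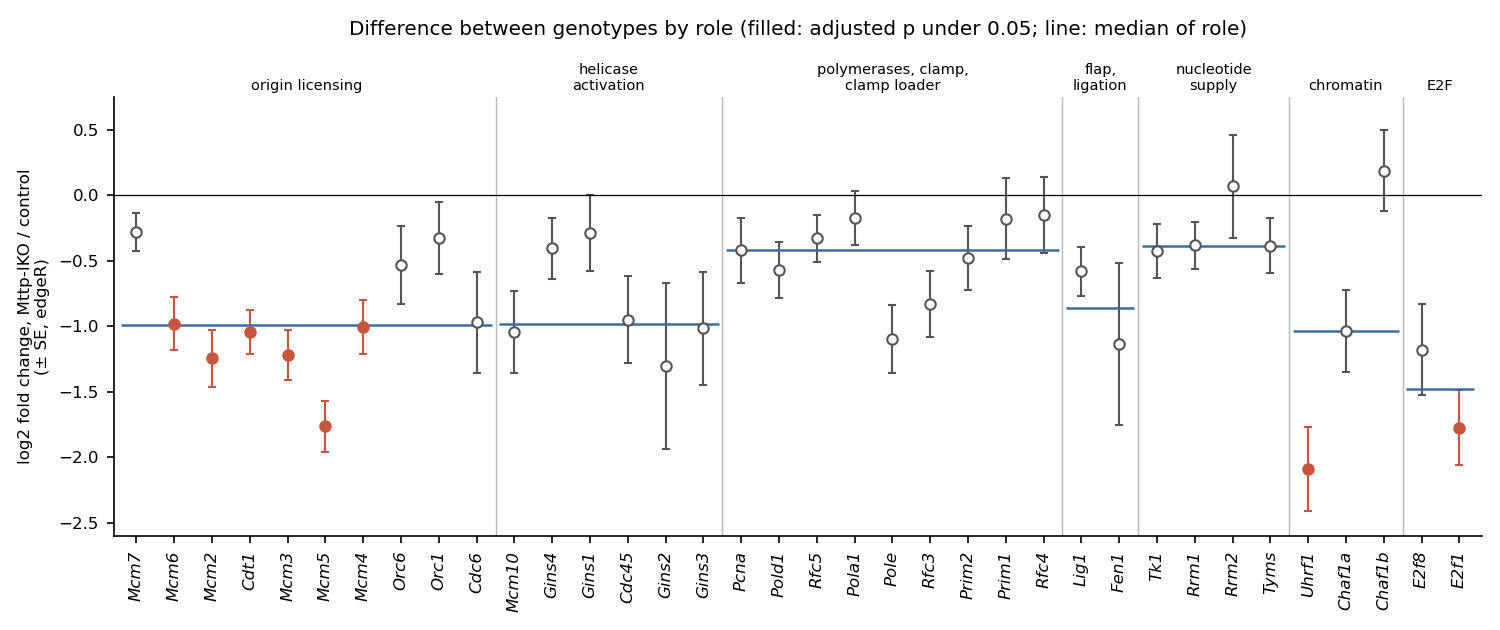
Log2 fold change of each of the 36 genes (*Mttp-IKO* against control, edgeR, error bars 1 SE) grouped by role, with genes of adjusted p under 0.05 filled and the median of each role as a line. The 8 filled genes lie in origin licensing, chromatin and E2F, and *Rrm2* and *Chaf1b* are the 2 genes with a value above 0.

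The promoters of these genes are shown because 34 of the 36 genes had a fold change of the same sign and because E2F sites are known in several of them. RefSeq (GRCm38.p6) gave 35 promoters for 30 of the 36 genes, each running from 250 bases before to 50 after a start site, and held no entry for *Mcm4*, *Pole*, *Gins1*, *Gins2*, *Gins4* or *Prim2*. The windows were searched on both strands for the E2F-type word TTGGCGC and for its variant forms, written TTGCCGC in the first, then TTCGCGC in the next, and finally TTCCCGC in the last. The same search was made for the cell cycle homology region, whose letters are TTTGAA here, and for the CCAAT box. The first 4 windows below belong to genes that fell in *Mttp-IKO* liver and the last 2 to genes that did not pass the test. Capitals mark E2F-type words on either strand, and words that overlap are counted as 1 site. The windows lie, in the order printed, at chr8:75109259-75109558 (plus strand), chr1:128359656-128359955 (minus), chr8:122567765-122568064 (plus), chr17:56303087-56303386 (plus), chr5:138171834-138172133 (minus) and chr12:24708004-24708303 (plus).
*Mcm5*: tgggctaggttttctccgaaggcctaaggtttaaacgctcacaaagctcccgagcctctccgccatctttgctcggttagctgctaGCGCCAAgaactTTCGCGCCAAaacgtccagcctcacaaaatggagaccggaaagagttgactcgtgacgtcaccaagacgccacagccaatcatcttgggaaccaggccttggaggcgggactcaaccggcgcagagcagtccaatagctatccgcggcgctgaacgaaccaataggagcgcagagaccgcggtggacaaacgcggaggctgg
*Mcm6*: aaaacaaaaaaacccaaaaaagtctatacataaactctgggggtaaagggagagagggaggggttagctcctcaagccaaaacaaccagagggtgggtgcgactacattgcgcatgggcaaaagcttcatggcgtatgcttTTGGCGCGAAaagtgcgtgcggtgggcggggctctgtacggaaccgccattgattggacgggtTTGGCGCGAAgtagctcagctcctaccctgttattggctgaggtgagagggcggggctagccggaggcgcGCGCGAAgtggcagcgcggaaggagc
*Cdt1*: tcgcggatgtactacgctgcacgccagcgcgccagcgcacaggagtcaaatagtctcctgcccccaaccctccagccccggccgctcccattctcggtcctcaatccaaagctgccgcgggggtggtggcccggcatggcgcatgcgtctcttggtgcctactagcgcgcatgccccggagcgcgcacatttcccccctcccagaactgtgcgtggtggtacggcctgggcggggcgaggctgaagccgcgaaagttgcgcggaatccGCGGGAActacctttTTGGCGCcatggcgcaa
*Uhrf1*: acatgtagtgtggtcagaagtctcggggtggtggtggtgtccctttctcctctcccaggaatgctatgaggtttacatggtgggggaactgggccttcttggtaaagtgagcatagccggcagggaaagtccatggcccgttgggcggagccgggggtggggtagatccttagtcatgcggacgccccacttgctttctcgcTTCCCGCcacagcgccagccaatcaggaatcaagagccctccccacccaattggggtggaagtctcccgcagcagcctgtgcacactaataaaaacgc
*Mcm7*: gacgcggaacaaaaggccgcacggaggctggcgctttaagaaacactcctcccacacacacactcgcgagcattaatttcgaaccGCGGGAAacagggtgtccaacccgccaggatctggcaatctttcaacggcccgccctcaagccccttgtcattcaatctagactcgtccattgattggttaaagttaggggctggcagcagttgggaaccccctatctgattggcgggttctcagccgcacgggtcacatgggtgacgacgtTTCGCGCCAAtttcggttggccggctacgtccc
*Rrm2*: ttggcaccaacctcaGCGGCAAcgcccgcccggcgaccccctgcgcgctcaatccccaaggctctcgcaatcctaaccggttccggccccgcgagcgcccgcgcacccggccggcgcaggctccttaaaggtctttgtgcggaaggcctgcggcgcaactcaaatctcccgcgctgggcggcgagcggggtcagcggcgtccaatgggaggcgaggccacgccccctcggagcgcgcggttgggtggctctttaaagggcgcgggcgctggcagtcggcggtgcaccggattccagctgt

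*Mcm5*, *Cdt1* and *Mcm7* held 2 sites each, *Mcm6* held 3, and *Uhrf1* and *Rrm2* held 1. Among the 30 genes, 21 (70%) had an E2F-type word in at least 1 promoter. The same held for 17.95% of the 11797 tested genes with a promoter and 10.86% of all 27025 genes with a promoter. A pair of sites or more was found in 10 of the 30 (33.3%), against 2.38% of tested genes. That box was found in 19 (63.3%) against 42.2% of tested genes, and TTTGAA in 5 (16.7%) against 15.1%. GC content was alike, with a median of 60% in these promoters and 59.7% over tested genes. The word was not limited to genes that passed the test: *Mcm7*, *Rrm2* and *Chaf1b*, which did not pass the test, have it, and *Mcm2* and *E2f1*, which did, have none in these windows. The windows of *E2f1*, *Mcm7* and *Cdc6* lie inside the genes as they were counted, so other start sites of these genes were not searched.

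Origin licensing held 6 of the 8 calls. *Mcm5*, a subunit of the helicase ring (chromosome 8, 75109528 to 75128439, GRCm38), was at 12.3, 10.8 and 11.2 CPM in the control pools and at 3.90, 3.25 and 2.93 CPM in the *Mttp-IKO* pools. It fell 3.39-fold (11.4 ± 0.789 → 3.36 ± 0.490 CPM, SD, n = 3; log2 fold change −1.76 ± 0.19 SE, adjusted p = 0.0126). The spread within each genotype was far smaller than the gap between them.

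*Mcm2* (chromosome 6, 88883475 to 88898780) was at 14.6, 12.9 and 13.9 CPM in control liver and at 7.57, 5.002 and 4.86 CPM in *Mttp-IKO* liver. Its fall was 2.37-fold (log2 fold change −1.24 ± 0.22 SE, adjusted p = 0.0288). *Mcm3* (chromosome 1, 20802968 to 20820312) stood at 11.6, 10.9 and 12.6 CPM against 5.15, 5.76 and 4.15 CPM. It fell by a like amount, 2.33-fold (−1.22 ± 0.19 SE, adjusted p = 0.0213), and in both genes the highest *Mttp-IKO* pool was below the lowest control pool.

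*Mcm4* (chromosome 16, 15623897 to 15637400) was at 10.5, 7.75 and 8.95 CPM in control liver and at 5.18, 4.11 and 4.27 CPM in *Mttp-IKO* liver, a 2.01-fold fall (−1.004 ± 0.21 SE, adjusted p = 0.0411). Its pools were apart, but limma-voom did not call it (adjusted p = 0.0546). *Mcm6* (chromosome 1, 128331590 to 128359664) was at 19.2, 15.3 and 17.7 CPM against 7.99, 11.0 and 7.50 CPM, a 1.97-fold fall (−0.98 ± 0.20 SE, adjusted p = 0.0414). *Cdt1*, whose product brings the ring to the origin (chromosome 8, 122568015 to 122573128), was at 13.4, 11.2 and 11.9 CPM against 5.80, 6.20 and 5.70 CPM. It fell 2.06-fold (12.2 ± 1.10 → 5.90 ± 0.266 CPM; −1.04 ± 0.17 SE, adjusted p = 0.0223). *Cdt1* overlaps a longer gene model, *Gm20388*, on its own strand.

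The sixth ring gene, *Mcm7*, did not pass the test although its pools did not overlap. It stood at 18.0, 18.3 and 17.9 CPM in control liver and at 15.3, 15.5 and 13.8 CPM in *Mttp-IKO* liver, a log2 fold change of −0.28 ± 0.14 SE (adjusted p = 0.283). The gene (chromosome 5, 138164583 to 138172422) overlaps *Cops6* and *Ap4m1* on the opposite strand and hosts *Mir25*, *Mir93* and *Mir106b*, and 34.2% of the 50-base words of its longest coding transcript also occur in other genes. Whether strand was used in counting is not stated. If it was not, reads that fit both *Mcm7* and an antisense neighbour were ambiguous and left out of the counts, so its level is uncertain. Of the remaining 3 licensing genes, *Cdc6* (1.47 ± 0.439 → 0.748 ± 0.214 CPM, unadjusted p = 0.0356 by edgeR, adjusted p = 0.185) and *Orc1* (1.52 ± 0.0370 → 1.21 ± 0.114 CPM, adjusted p = 0.514) did not overlap between genotypes and *Orc6* did (2.85 ± 0.415 → 1.96 ± 0.586 CPM, adjusted p = 0.325). The median log2 fold change of the 10 licensing genes was −0.99.

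**Figure D2:**
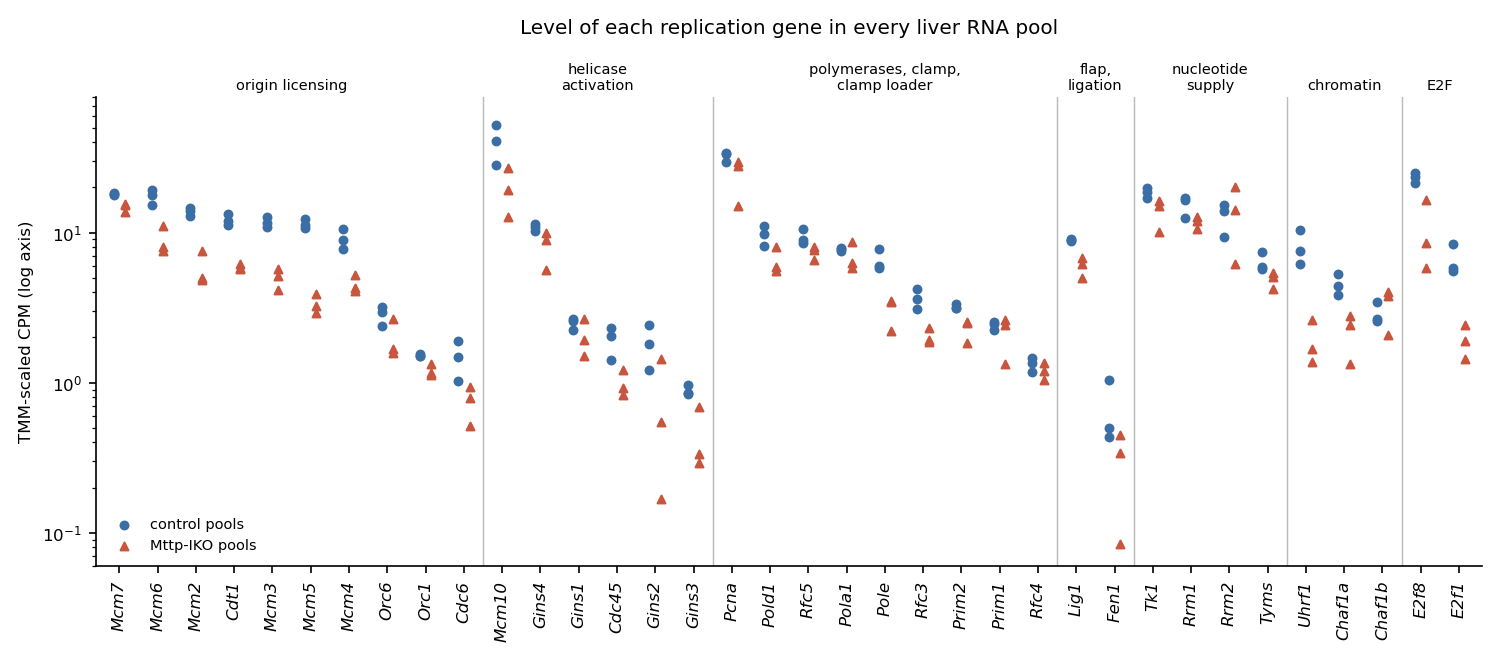
Level of each of the 36 genes in every pool (TMM-scaled CPM, log axis), grouped by role and ordered by level within a role, with circles for control pools and triangles for *Mttp-IKO* pools. The groups are clearly apart for *Mcm2* to *Mcm6*, *Cdt1*, *Uhrf1* and *E2f1*, close together for *Mcm7* and mixed for *Rrm2* and *Chaf1b*.

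MCM2 to MCM7 act as a ring with 1 copy of each subunit, so the 6 genes were also compared as shares of their summed level per kilobase of gene length. In control pools the shares lay between 11.1% (*Mcm4*) and 21.2% (*Mcm7*). *Mcm5* held 16.2%, 16.2% and 15.5% of the sum in control pools and 10.02%, 8.67% and 9.20% in *Mttp-IKO* pools. *Mcm7* held 18.4%, 21.2% and 19.2% and then 30.4%, 31.9% and 33.4%. Both shares were apart in all pools (two-sided exact permutation p = 0.1 each, the smallest that 3 pools against 3 can give, and 0.3 adjusted over the 6 genes), and the shares of *Mcm2*, *Mcm4* and *Mcm6* overlapped between genotypes. That of *Mcm3* overlapped only just, with 13.982% in the lowest control pool and 13.983% in the highest *Mttp-IKO* pool. In each *Mttp-IKO* pool *Mcm5* held the smallest share of the 6 genes and *Mcm7* the largest, with the shared words of *Mcm7* named above.

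**Figure D3:**
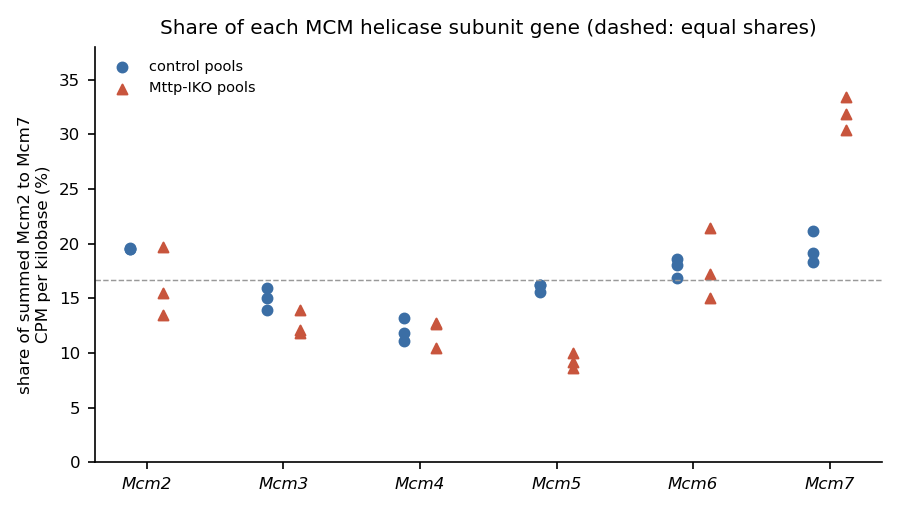
Share of each of *Mcm2* to *Mcm7* in their summed CPM per kilobase (percent) in each pool, with equal shares as a dashed line. *Mcm7* lies at 30.4% to 33.4% in *Mttp-IKO* pools and 18.4% to 21.2% in control pools, and *Mcm5* at 8.67% to 10.02% and 15.5% to 16.2%.

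The 6 genes of helicase activation had a median log2 fold change of −0.98, close to that of licensing, yet 0 passed edgeR's test. At an unadjusted p under 0.05, 3 were lower, as were 13.5% of all genes tested. DESeq2 called 1 (*Mcm10*) and limma-voom called 0. *Mcm10*, whose product is needed for the helicase to open the origin, had the highest CPM of the 6, with 28.4, 51.8 and 40.7 in control and 12.7, 19.1 and 26.9 in *Mttp-IKO* liver (log2 fold change −1.04 ± 0.31 SE, adjusted p = 0.101). Its pools were apart, but they spread widely within each genotype. *Gins1* changed least of the 6, from 2.65, 2.58 and 2.25 CPM to 1.93, 2.67 and 1.51 CPM (−0.29 ± 0.29 SE, adjusted p = 0.593), with overlap.

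The other 4 genes of this role did not pass the test either. *Cdc45* stood at 1.92 ± 0.459 CPM in control and 0.989 ± 0.209 CPM in *Mttp-IKO* liver (adjusted p = 0.143), *Gins3* at 0.889 ± 0.0672 and 0.437 ± 0.216 CPM (adjusted p = 0.209) and *Gins4* at 10.9 ± 0.597 and 8.19 ± 2.29 CPM (adjusted p = 0.337). *Gins2* ran from 2.43 to 1.22 CPM in control liver and from 1.45 to 0.168 CPM in *Mttp-IKO* liver, where the lowest, pool 3, rests on 4 reads. *Gins2* shares 70.4% of its 50-base words with *Gse1*, which overlaps it on the opposite strand, so its value is uncertain.

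Of the 9 genes of the polymerases, clamp and clamp loader, 9 had a negative log2 fold change with a median of −0.42. None passed edgeR's test, and 3 were lower at an unadjusted p under 0.05 (*Pold1*, *Pole* and *Rfc3*), as were 13.5% of all genes tested. DESeq2 called 2 (*Pole* and *Rfc3*) and limma-voom called 0. *Pole*, the catalytic subunit of the leading-strand polymerase, came nearest, with 7.73, 5.98 and 5.77 CPM in control liver and 2.22, 3.43 and 3.48 CPM in *Mttp-IKO* liver (−1.10 ± 0.26 SE, adjusted p = 0.0569). The *Pole* pools did not overlap, and the call passed the threshold with total-count scaling (adjusted p = 0.0325). It also passed with no filter on low counts and with each pool corrected for gene length.

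*Pcna*, the sliding clamp that holds polymerases on DNA and a common marker of proliferating cells, was the most abundant of the 36 genes per kilobase (13.4 CPM per kilobase in control, 10.01 in *Mttp-IKO*). It stood at 33.9, 29.5 and 33.2 CPM in control liver and at 29.4, 27.6 and 15.04 CPM in *Mttp-IKO* liver (−0.42 ± 0.25 SE, adjusted p = 0.348). The low value belongs to *Mttp-IKO* pool 3, the library that was poor in short transcripts, and without it the log2 fold change was −0.17. *Pcna* also shares 31.8% of its 50-base words with the pseudogene *Pcna-ps2*. *Rfc4*, of the clamp loader, moved least, from 1.46, 1.36 and 1.19 CPM to 1.35, 1.199 and 1.05 CPM (−0.15 ± 0.29 SE, adjusted p = 0.794). *Pola1*, *Prim1*, *Prim2* and *Rfc5* had log2 fold changes of −0.17, −0.18, −0.48 and −0.33, and *Pola1* and *Prim1* overlapped between genotypes. *Rfc5* shares 23.0% of its 50-base words with other genes, among them *Wsb2* on the opposite strand.

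The 2 genes of flap removal and ligation had 0 calls by edgeR, DESeq2 and limma-voom, and 1 (*Lig1*) at an unadjusted p under 0.05. *Lig1*, the ligase that joins Okazaki fragments, was even in control pools at 8.97, 8.75 and 9.11 CPM and stood at 6.73, 6.20 and 4.99 CPM in *Mttp-IKO* liver (−0.58 ± 0.19 SE, adjusted p = 0.119). The groups of *Lig1* did not overlap. *Fen1*, the flap nuclease, was at 0.658 ± 0.332 and 0.292 ± 0.189 CPM (adjusted p = 0.312), down to 2 reads in *Mttp-IKO* pool 3, and 81.2% of its 50-base words are shared with *Tmem258* and *Gm10143*, so its level is uncertain.

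Nucleotide supply had the median log2 fold change nearest 0 of the 7 roles, −0.38 over 4 genes, with 0 calls by edgeR, DESeq2 and limma-voom, and 0 at an unadjusted p under 0.05. *Rrm2*, the regulated subunit of ribonucleotide reductase, was at 9.31, 15.3 and 13.9 CPM in control liver and at 14.04, 20.1 and 6.20 CPM in *Mttp-IKO* liver (0.07 ± 0.39 SE, adjusted p = 0.937). *Mttp-IKO* pools thus held both the highest and the lowest value, and the sign turned with total-count scaling (−0.11) and without *Mttp-IKO* pool 2 (−0.34), while without pool 3 the value was 0.41. *Tk1*, the salvage enzyme for thymidine, was at 18.7, 17.0 and 19.7 CPM against 10.1, 15.005 and 16.2 CPM (−0.43 ± 0.21 SE, adjusted p = 0.260), with groups just apart, and overlaps *Afmid* on the opposite strand.

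*Rrm1*, the large subunit of the reductase, was at 15.3 ± 2.39 and 11.7 ± 1.07 CPM (adjusted p = 0.251), and *Tyms*, thymidylate synthase, at 6.36 ± 0.948 and 4.87 ± 0.603 CPM (adjusted p = 0.313). Within a pool, the CPM ratio of *Rrm2* to *Mcm5* was 0.757 to 1.42 in control pools and 2.11 to 6.17 in *Mttp-IKO* pools, and that of *Rrm2* to *Rrm1* overlapped between genotypes, at 0.569 to 1.22 and 0.585 to 1.68. These ratios were chosen after the values were seen and are given with no test.

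*Uhrf1* had the largest fall of the 36 genes. Its product recognises hemimethylated DNA behind the fork and brings in the maintenance methyltransferase. It was at 10.4, 6.20 and 7.52 CPM in control liver and at 2.61, 1.37 and 1.68 CPM in *Mttp-IKO* liver, a 4.25-fold fall (chromosome 17, 56303321 to 56323486; log2 fold change −2.09 ± 0.32 SE, adjusted p = 0.0200). The lowest control pool stood above the highest *Mttp-IKO* pool by a wide margin, and 18.9% of its 50-base words occur in *Gm5648* or *Gm15953*. The chaperone subunits that place histones behind the fork had values of opposite sign: *Chaf1a* stood at 4.50 ± 0.732 and 2.18 ± 0.747 CPM (−1.04 ± 0.31 SE, adjusted p = 0.105, called by DESeq2), with 45.7% of its 50-base words shared with *Ubxn6* on the opposite strand, and *Chaf1b* at 3.44, 2.66 and 2.59 CPM against 2.09, 3.80 and 4.02 CPM (0.19 ± 0.31 SE, adjusted p = 0.759). *Chaf1b* overlapped between genotypes, and its sign turned with total-count scaling (−0.01).

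*E2f1*, an activator of S-phase genes (chromosome 2, 154559407 to 154569892), was at 8.35, 5.54 and 5.77 CPM in control liver and at 1.90, 1.44 and 2.43 CPM in *Mttp-IKO* liver. It fell 3.42-fold (6.55 ± 1.56 → 1.92 ± 0.496 CPM; −1.77 ± 0.29 SE, adjusted p = 0.0241). *E2f8*, an atypical E2F that represses the same targets and acts in hepatocyte polyploidy, was the more abundant of the pair, at 23.4, 25.01 and 21.2 CPM against 5.83, 8.496 and 16.6 CPM (−1.18 ± 0.35 SE, adjusted p = 0.0978). Its highest *Mttp-IKO* value was in pool 3, the library that stood apart, and without that pool it passed the test (log2 fold change −1.70, adjusted p = 0.0140). Among the alternatives run, *E2f8* passed only by DESeq2, without that pool or at a threshold of 0.1.

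Of other genes of the pathway, 3 passed the test. Over 117 tested genes of 7 lists (119 symbols in all), 1 fell and 2 rose (3.09% and 0.92% of all genes did so), with a median log2 fold change of −0.06. At an unadjusted p under 0.05, 23 were lower and 6 higher, against 13.5% and 9.53% of all genes. *Clspn*, the checkpoint adaptor of the fork, was the 1 that fell, with 1.83, 0.609 and 0.936 CPM in control liver and 0.193, 0.0685 and 0.210 CPM in *Mttp-IKO* liver (−2.83 ± 0.61 SE, adjusted p = 0.0463), on at most 6 reads in any *Mttp-IKO* pool. It stood among 19 other origin and fork genes with a median of −0.22, of which 6 were lower at an unadjusted p under 0.05. DESeq2 called *Clspn*, *Dbf4* and *Ticrr* there, and limma-voom called 0.

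*Cdkn1a*, which encodes the cyclin-dependent kinase inhibitor p21 that holds cells before S phase, rose from 47.7, 25.1 and 33.8 CPM in control pools to 96.8, 102 and 120 CPM in *Mttp-IKO* liver (1.58 ± 0.24 SE, adjusted p = 0.0205). The lowest *Mttp-IKO* pool was above the highest control pool, and DESeq2 and limma-voom called it too. The 11 other cyclin, kinase and inhibitor genes of the G1 to S list were not called by edgeR. At an unadjusted p under 0.05, 3 of them were lower, as were 13.5% of all genes tested. Among these 3 was *Ccnd1*, cyclin D1 (234 ± 6.84 → 145 ± 52.9 CPM, adjusted p = 0.159), and DESeq2 called *Ccne1* lower. *Gmps*, GMP synthetase of purine synthesis, rose from 34.6 ± 3.36 to 53.9 ± 1.54 CPM (0.64 ± 0.14 SE, adjusted p = 0.0483), but not by limma-voom, in a list of 15 purine and pyrimidine genes with a median of 0.05. These calls also rested on single pools: of the 6 fits that left out 1 pool, *Clspn* was called in 1 (without control pool 2), *Gmps* in 1 (without *Mttp-IKO* pool 3) and *Cdkn1a* in 3 (without control pool 1, control pool 2 or *Mttp-IKO* pool 3).

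The 27 tested S-phase repair genes, which mend forks and breaks during replication, had a median of −0.06 and 0 calls by edgeR and limma-voom. At an unadjusted p under 0.05, 7 of the 27 were lower and 2 higher, against 13.5% and 9.53% of all genes. DESeq2 called *Exo1* and *Mms22l* lower, where it called 1338 of all 17287 genes lower. The most abundant, *Tonsl*, was at 44.2 ± 2.11 and 42.7 ± 13.7 CPM (adjusted p = 0.927). The medians of origin licensing (−0.99), polymerases (−0.42), nucleotide supply (−0.38) and S-phase repair (−0.06) are descriptions, and no test between these roles was made.

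Other lists had 0 calls by edgeR and limma-voom. At an unadjusted p under 0.05, 13.5% of all genes were lower and 9.53% higher, to be read beside the counts that follow. Among 19 other polymerase, clamp and fork protein genes (median −0.18), 2 were lower and 1 higher at an unadjusted p under 0.05 and DESeq2 called *Pola2*, and the most abundant, *Chtf8* of the clamp loader, was at 39.3 ± 2.29 and 45.3 ± 4.25 CPM. Among 14 other deoxynucleotide and thymidylate genes (median −0.01), 3 were lower and DESeq2 called *Dck* and *Dut*, and the most abundant, *Shmt2*, was at 176 ± 18.6 and 179 ± 18.1 CPM. Among 11 E2F and pocket protein genes (median 0.12), 2 were lower and DESeq2 called *Rbl1*, and the most abundant, *Rbl2*, was at 34.9 ± 1.58 and 40.9 ± 13.4 CPM.

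**Figure D4:**
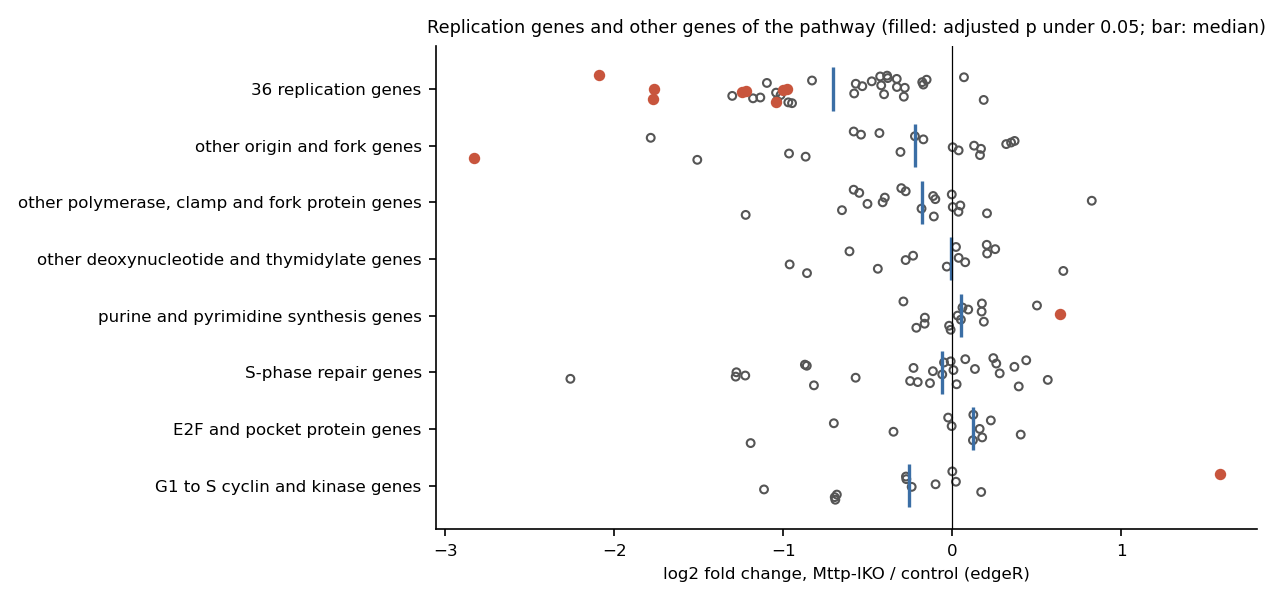
Log2 fold change (*Mttp-IKO* against control, edgeR) of every tested gene of the 36 and of 7 lists of related genes, with genes of adjusted p under 0.05 filled and the median of each list as a bar. The median is −0.71 for the 36 genes and −0.26 to 0.12 for the other lists, in which *Clspn*, *Gmps* and *Cdkn1a* are filled.

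Markers of liver cell types moved with the genotypes as well. Of all genes tested 3.09% fell and 9.53% were higher at an unadjusted p under 0.05, to be read beside the marker counts. All 8 genes listed as markers of recruited macrophages had negative fold changes and 4 fell (*Ccr2*, *Cx3cr1*, *Lyz2* and *Trem2*). Their summed level was 477 to 1219 CPM in control and 231 to 265 CPM in *Mttp-IKO* liver. How far these 8 genes tell recruited from resident macrophages was not tested. All 7 stellate cell markers had negative fold changes too and 5 fell (*Acta2*, *Col1a1*, *Lrat*, *Ngfr* and *Pdgfrb*), with sums of 511 to 843 and 251 to 327 CPM. Most of the *Mttp-IKO* sums was *Reln*, at 181, 187 and 255 CPM, which overlapped between genotypes (edgeR adjusted p = 0.235). Of the stellate markers limma-voom called 3. With 1 pool left out, edgeR called 0 to 8 of the macrophage and 0 to 6 of the stellate markers. The 6 hepatocyte markers summed to 49844 to 82127 CPM in control and 97471 to 152652 CPM in *Mttp-IKO* liver, with 0 called by edgeR or limma-voom, 3 higher at an unadjusted p under 0.05 and 3 called by DESeq2. Most of that sum was *Alb*, with means of 54086 and 104640 CPM. *Ttr* went the other way, with no overlap (3292 ± 511 → 2249 ± 686 CPM, edgeR adjusted p = 0.290), and *Asgr1* changed little (log2 fold change 0.24). All 6 hepatocyte markers were read in every pool, as befits the labelled tissue.

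The remaining lists were smaller or overlapped. B cell markers summed to 3.15 to 3.27 and 1.13 to 1.67 CPM and T cell markers to 4.85 to 9.91 and 3.35 to 5.06 CPM. Sums of endothelial (364 to 414 and 364 to 414 CPM), Kupffer cell (288 to 426 and 222 to 551 CPM), cholangiocyte (30.5 to 46.4 and 22.2 to 41.1 CPM) and neutrophil markers (2.91 to 10.1 and 2.91 to 9.27 CPM) overlapped, and edgeR called 1 of their genes, *Timd4* of Kupffer cells, which rose. In the Kupffer cell list *Cd5l* was lower and *Marco* higher at an unadjusted p under 0.05 by edgeR, both with overlap. *Ly6g* of neutrophils had 0 reads in the control pools.

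In control pool 2 the macrophage sum was 477 CPM, against 1131 and 1219 CPM in the other control pools. The sum of the 36 replication genes there, 335 CPM, was also the lowest of the control pools, but close to the others (346 and 344). The hepatocyte sum there, 82127 CPM, was the highest of the control pools. *Mcm10* was at its highest in that pool, and without it the sums of the other 35 genes were 318, 283 and 303 CPM in control liver against 194, 205 and 171 CPM in *Mttp-IKO* liver, again with no overlap. The part of changing cell makeup in the replication genes was not tested, and in bulk RNA fewer cells of a type and less RNA per cell cannot be told apart.

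**Figure D5:**
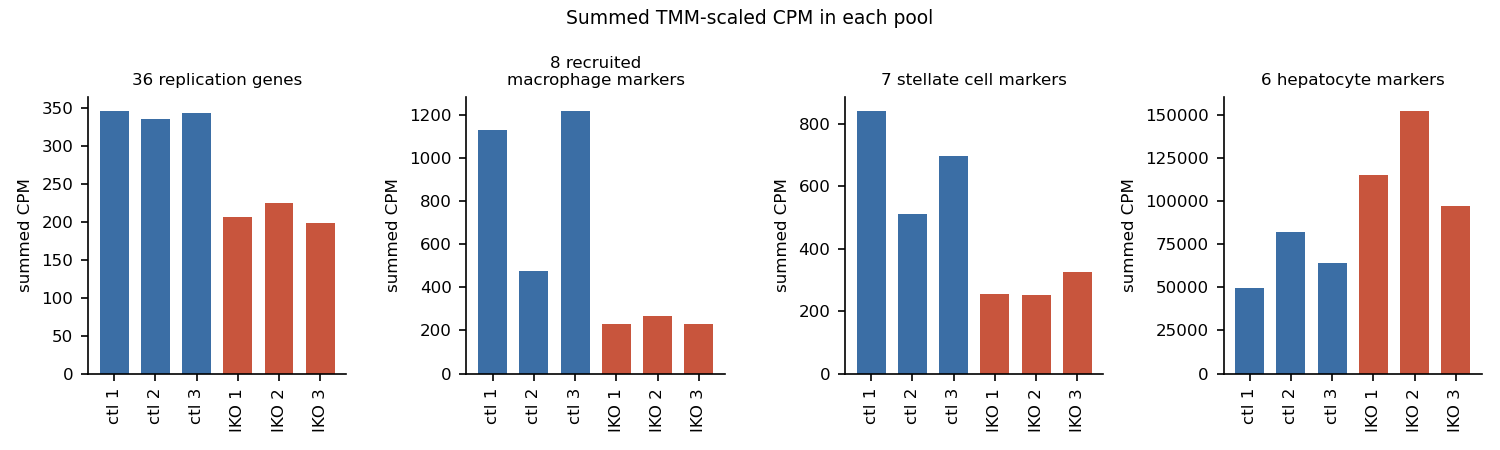
Summed TMM-scaled CPM in each pool of the 36 replication genes and of the markers of recruited macrophages, stellate cells and hepatocytes, as bars from 0. The replication genes sum to 335 to 346 in control and 198 to 224 in *Mttp-IKO* pools, and control pool 2 has the lowest sum of its genotype in the first 3 panels.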

How the data were processed

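The authors deposited, for each of 6 pools of liver RNA (3 per genotype, by the paper 3 to 4 mice each), the read count of 41388 genes. Ribosomal RNA was depleted before library preparation, reads were aligned with STAR 2.5.1a to the Ensembl release 76 assembly (GRCm38), and featureCounts 1.4.6-p5 counted uniquely aligned, unambiguous reads, without normalization. Reads that fit several genes are therefore missing, which lowers genes with near-identical copies, and the strand setting is not given in the sources used here. The authors also deposited CPM and RPKM values made from these counts, which were not tested. Their table of all pools held 40481 genes with symbols and the same counts, and 276 repeated lines were dropped.

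Genes were filtered with filterByExpr (minimum count 10, minimum total 15), which left 17287, scaled by TMM and tested between genotypes with edgeR's quasi-likelihood functions (version 4.0.16 in R 4.3.3). P-values were adjusted by Benjamini-Hochberg over all 17287, and 0.05 was the threshold. CPM in the text are scaled by TMM. DESeq2 1.42.0, limma-voom (limma 3.58.1), other scalings and filters, a block for the replicate number, a loess correction (span 0.3) of each pool for gene length, a threshold of 0.1 and leaving out each pool were the alternatives. The test was checked on simulated counts. The 36 genes, the lists of related genes and the markers were chosen with earlier results of these data known, and 1 marker list is not reported here. Genes given in every pool were those with an adjusted p under 0.05 and, in each role, the one with the highest mean CPM and the one with the smallest fold change. Of the related genes, those with an adjusted p under 0.05 were named, and otherwise the most abundant of a list. *Pole*, and genes named for a count or a call by another tool, were added after their values were seen. Promoters came from RefSeq (GRCm38.p6), and 50-base words were compared with the 141767 transcripts of GENCODE M21.

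Same-numbered pools of the genotypes deviated together with correlations of 0.139, 0.112 and 0.007, and the labels tie the number to no litter or day, so the pools were not treated as paired. P-values measure only the spread between pools, and the limits from 3 reads cover counting error only. Plots were made in Python 3.11.15 with matplotlib 3.10.9.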

Additional observations from a re-analysis of the deposited data

How the results depend on the processing

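Of the 36 replication genes, 8 fell with TMM, 8 with DESeq2 size factors or upper quartile factors and 13 by DESeq2. The count was 9 with total counts, with no filter or with the length trend removed, 7 by limma-voom and 0 to 8 when 1 pool was left out. The median log2 fold change was −0.71, but −0.88 with total counts, where the median of all genes was −0.17 and the difference between them again −0.71. Leaving out 1 pool gave medians of −0.78 to −0.63. Over all genes 694 were called, 77.1% of them lower. With total counts 88.9% of the calls were lower, and with DESeq2 67.1% of 1995. limma-voom called 428, an adjusted p of 0.1 gave 1659, and leaving out 1 pool gave 0 to 892, 0 of them without *Mttp-IKO* pool 2, where 3221 had an unadjusted p under 0.05. The replicate block called 7 of the 36 genes, *Mcm10* among them, *Mcm4* and *Mcm6* not, and 595 over all genes. *Rrm2* turned negative with total counts (−0.11), limma-voom (−0.018) and the replicate block (−0.035), and ranged from −0.34 to 0.41 when 1 pool was left out. *Chaf1b* did so with total counts (−0.0084), and *Prim1* ranged from −0.35 to 0.062. Of the related genes, 1 fell by edgeR, with 3 under upper quartile factors, 8 under total counts, 10 by DESeq2, 0 by limma-voom, 2 with no filter, 2 among protein-coding genes, 4 with the length trend removed, 10 at 0.1 and 0 to 2 without 1 pool. The 2 that rose became 1 under upper quartile factors, total counts, limma-voom, no filter, the replicate block and the length trend, and 0 to 3 without 1 pool. The causes were not tested. Genes near 1 CPM, *Gins2*, *Gins3*, *Fen1* and *Cdc6* among them, rest on 2 to 45 reads in *Mttp-IKO* pools, which limits what could be detected.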
